A study of Mus musculus with 6 samples.

Results

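The genes described are 10 that are used as markers of the cartilage primordium of the trachea: the matrix protein genes Mgp, Matn1, Matn2, Matn3, Matn4, Acan, Hapln1 and Cnmd and the transcription factor genes Sox5 and Sox6. They were chosen by name, that is, they were not chosen by a threshold, but the regional differences on these arrays, among them that of Matn4, were already known when the list was drawn up. Every probe set, a group of short oligonucleotides against a transcript, that the platform's annotation pairs with 1 of these symbols alone was taken, which gave 11 of the 12422 probe sets that are not controls. These read 9 of the 10 genes, out of 8251 genes on the array. The annotation pairs no probe set with Cnmd, so this gene was not analysed here. Gene expression was measured in total RNA of dissected mouse lung at embryonic day E11.5. The branching region held tissue of the left and right lungs and was measured on 3 arrays, and the non-branching region, the main bronchi with a piece of trachea, on 3 other arrays. No strain, genotype or treatment is given in the labels used here. Whether the replicates are separate embryos or litters is not stated, so each p-value reflects the spread of these 6 samples, part of which may be technical. The tissue was not sorted, so fewer cells of a type and less RNA per cell cannot be told apart.

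Cartilage rings keep the trachea open. They arise from mesenchyme on the ventral side of the tube, in which the transcription factor Sox9, with its partners Sox5 and Sox6, switches on the cartilage matrix genes. Cartilage matrix consists of a network of type II, IX and XI collagen, filled with the proteoglycan aggrecan (Acan), which link protein (Hapln1) fixes to hyaluronan. Matrilins are adaptor proteins that tie collagen and proteoglycan together. Matrilin-1 and matrilin-3 are largely limited to the skeleton, while matrilin-2 and matrilin-4 also occur in other connective tissues. Matrix Gla protein (Mgp) keeps cartilage and vessel walls from calcifying, and is made by smooth muscle and other mesenchymal cells as well as by chondrocytes.

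The array values were read on the linear intensity scale as deposited, against a background level of 147, the 95th percentile of 19 controls that target RNA of bacteria and yeast. The arrays had a common level, with medians of 212 to 229. Non-branching replicate 2 had the highest median of those controls, at 78.8, against 19.8 to 40.7 elsewhere. Red blood cell genes, which mark blood left in the tissue, had a summed intensity of 137527 to 153197 in branching and of 89388 to 97005 in non-branching.

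Mgp and Matn4 were the members with a clear signal in both regions, and both were lower in branching. Mgp had 4.42-fold and Matn4 2.56-fold less signal there. Sox6 and Matn2 had means above background in non-branching alone, and 5 of the 11 probe sets, those of Matn1, Matn3, Acan and Hapln1 and the dimmer of Sox6, did not reach background on any of the 6 arrays. The label of the list was therefore not borne out for its defining cartilage genes: aggrecan, link protein, matrilin-1 and matrilin-3 were not detectable above background in either region at this stage, and the values that differ are those of Mgp and Matn4.

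Promoter sequences are shown for Matn4, the member with a clear regional difference that the RefSeq table of promoters holds, and for Sox6. Of the 10 members 8 are in this table, with 14 start sites, and Mgp and Matn2 are not. The stretches are the 250 bases before the outermost listed start on assembly GRCm38.p6, both on the minus strand, at chr2:164405161-164405410 for Matn4 and at chr7:116038745-116038994 for Sox6. Capitals mark a match to a SOX heptamer, searched on both strands as NNCAANG with A or T at each N.
Matn4: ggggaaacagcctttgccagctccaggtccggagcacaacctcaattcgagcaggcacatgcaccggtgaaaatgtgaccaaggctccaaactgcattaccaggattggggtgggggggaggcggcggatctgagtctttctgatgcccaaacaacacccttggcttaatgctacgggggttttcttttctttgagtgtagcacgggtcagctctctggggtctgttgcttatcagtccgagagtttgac
Sox6: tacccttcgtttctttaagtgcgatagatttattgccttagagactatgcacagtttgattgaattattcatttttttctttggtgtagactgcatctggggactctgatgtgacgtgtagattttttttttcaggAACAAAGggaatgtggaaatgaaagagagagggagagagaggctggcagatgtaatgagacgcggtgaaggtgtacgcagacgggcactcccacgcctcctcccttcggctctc
The first base of the match of Sox6 lies 114 bases before the start. All 6 listed starts of Sox6 held at least 1 heptamer, and none of the other 8 member starts did, including the 2 of Matn4, where 21.8% of the 32851 stretches of the table hold 1. The stretches of Sox6 had 39.2% to 66% A and T, those of Matn4 37.2% and 45.6%, and the median over the table was 47.6%. A match is a string of letters and not a binding site, and its absence says nothing about the factor.

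Mgp, the calcification inhibitor, had a signal of 539, 476 and 586 on branching replicates 1, 2 and 3 and of 2529, 2108 and 2436 on non-branching replicates 1, 2 and 3. The regions did not overlap, and the lowest non-branching array was 3.60 times the highest branching array. Mean signal was 534 ± 55.1 (SD, n = 3) against 2358 ± 221 in non-branching, and the log2 difference, branching minus non-branching, was -2.14 ± 0.14 (SE of the limma fit over all probe sets). Among all 9316 probe sets tested its fall ranked 29. Among the 6892 of these whose means were above background in both regions it ranked 3. That smaller set leaves out every probe set whose branching mean lay below background. The Mgp probe set is of a design that can also bind related transcripts, as its name marks, and it is the gene's single probe set here.

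Of the 4 matrilin genes, Matn4 was the 1 with signal above background in branching as well as non-branching. Its values were 607, 664 and 669 on the branching arrays and 1565, 1793 and 1602 on the non-branching arrays. No branching value came near a non-branching one, and the lowest non-branching array was 2.34 times the highest branching array. The means were 646 ± 34.5 and 1653 ± 122 (SD, n = 3), with a log2 difference of -1.35 ± 0.13 (SE).

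Matn2, a matrilin also found outside the skeleton, was read by 2 probe sets. The brighter gave 52.7, 83 and 117 in branching and 243, 86.7 and 154 in non-branching. All branching values were below background and 2 of the 3 non-branching values above it, and the regions overlapped because non-branching replicate 2 lay within the branching range. The dimmer gave 163, 49.8 and 24.6 in branching and 78.4, 117 and 45.7 in non-branching, with branching replicate 1 as the 1 array above background. No difference is given for either, since at least 1 region had a mean below background. Matn1 and Matn3, the matrilins of skeletal cartilage, ranged from 12.4 to 34.5 and from 16.8 to 49.5 over the 6 arrays. These values are in the range of the control probe sets, so the arrays give neither gene a measurable level in either region.

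The genes of aggrecan and of its link protein were not detectable either. Acan, the aggrecan gene, had 47.7, 52.4 and 32.7 in branching and 56.6, 73.3 and 38.8 in non-branching. Hapln1, which encodes link protein, had 38.2, 11.2 and 57.2 in branching and 52.3, 82.9 and 18.9 in non-branching. All of these values were below background and the regions overlapped for both genes.

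The SoxD genes Sox5 and Sox6 encode transcription factors that bind DNA next to Sox9 on cartilage genes. Sox6, on its brighter probe set, had 129, 94.8 and 167 in branching and 214, 348 and 262 in non-branching. The regions did not overlap, but only by 1.28 times between the nearest arrays, and 2 of the 3 branching arrays were below background, so no difference is given. Its dimmer probe set, of a design with relaxed selection rules, had 48.3, 41.2 and 8.8 in branching and 143, 8.3 and 92.3 in non-branching. Those values were below background on all arrays and overlapped. Sox5 had 157, 76 and 131 in branching and 21.5, 63.4 and 183 in non-branching, with 1 array above background in each region. It overlapped between the regions, and its widest spread was among the non-branching arrays. Sox13, the third SoxD gene and named here for that family, had 982 to 1654 in branching and 1274 to 1882 in non-branching, and differed by -0.19 ± 0.21 on the log2 scale (SE, limma adjusted p = 0.749).

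**Figure D1:**
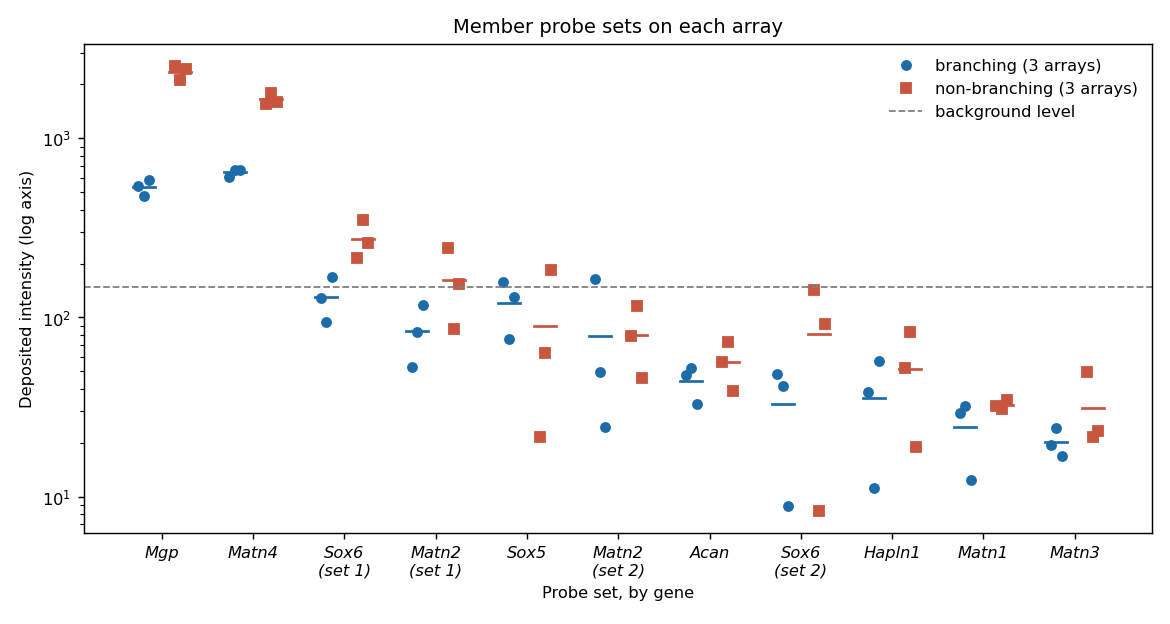
Deposited intensity (log axis) of the 11 member probe sets on each array, with circles for the 3 branching arrays, squares for the 3 non-branching arrays, short lines for the means and a dashed line at the background level of 147. Mgp and Matn4 lie above the line on all arrays with the regions apart, Sox6 set 1 crosses it, and the probe sets of Matn1, Matn3, Acan and Hapln1 stay below it.

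In the limma fit over all 9316 probe sets, 6 of the 11 member probe sets were bright enough to be tested, and 2 of these 6, Mgp and Matn4, were called lower in branching (adjusted p under 0.05), where 1.13% of all probe sets tested were called lower. None was called higher, where 0.902% were called higher. The 3 branching values lay below the 3 non-branching values in 3 of the 6 probe sets tested, those of Mgp, Matn4 and Sox6, where 11.0% of all probe sets tested show this. Because the members were chosen with this contrast known, these counts describe the list and support nothing further, and no p-value is given for a member. Of these 6, 4 had at least 1 regional mean below background. With each value below background set to that level, the median log2 difference of the 6 was -0.54 and that of all probe sets tested was 0. Mgp and Matn4 were called whichever array was left out.

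The label was checked against 12 marker genes of cartilage cells, of which 9 were on the array. Sox9, the master regulator, Comp and Cnmd were not analysed here, because no probe set carries those symbols alone. Acan and Matn1 were below background on all 6 arrays and Col11a2 on 5 of 6. Col2a1, Col9a1, Col9a2, Col9a3, Col11a1 and Chad were above background on all 6. The summed intensity of the 9 markers was 3099 to 3441 in branching and 4768 to 5435 in non-branching, and the regions did not overlap. The type IX collagen genes carried this separation: without these 3, left out after the values were seen, the sums of the other 6 markers overlapped, at 817 to 1593 in branching and 1134 to 1324 in non-branching.

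The collagens of cartilage were split. Col2a1, the type II collagen gene that makes the bulk of cartilage fibrils, had 243, 266 and 243 in branching and 184, 247 and 207 in non-branching, on a probe set that can bind related transcripts. The regions overlapped, with a log2 difference of 0.25 ± 0.28 (SE, n = 3 per region, limma adjusted p = 0.758). The 3 chain genes of type IX collagen, which coats those fibrils and also occurs in embryonic epithelia, were all lower in branching without overlap. Col9a3 had 546, 562 and 776 in branching and 1521, 1133 and 1236 in non-branching, and fell by 1.05 ± 0.19 on the log2 scale (limma adjusted p = 0.0225). Col9a2 had 604, 534 and 520 in branching and 895, 1008 and 946 in non-branching, and fell by 0.78 ± 0.15 (limma adjusted p = 0.0322). Col9a1 had 699, 1209 and 861 in branching and 1885, 1302 and 1618 in non-branching, and its log2 difference of -0.82 ± 0.22 did not pass (limma adjusted p = 0.102). Neither call was stable when 1 array was left out. The calls over all probe sets also fell then, from 84 higher and 105 lower to 16 to 69 and 38 to 98. With 1 array left out, Col9a3 kept its call without branching replicate 3 and Col9a2 without branching replicate 1, and each lost it in the other 5 cases (limma adjusted p up to 0.0878 and 0.139, each without non-branching replicate 3). Neither held when the variance was not modelled as a trend (adjusted p = 0.149 and 0.128).

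Of 20 genes listed as cartilage collagens and matrix, 14 were on the array and 11 were tested. None rose, 2 fell and 9 did not pass, where 2.32% of the 6798 genes tested passed in either direction and 1.32% fell. Their median log2 difference was -0.18 and that of all genes tested was 0. These medians and those of the lists that follow have values below background set to that level. Mia, a secreted protein of chondrocytes that was named after its value was seen, had the highest log2 difference of the list, with 415, 586 and 448 in branching and 174, 292 and 209 in non-branching. Its regions did not overlap, but its difference of 1.12 ± 0.28 did not pass (limma adjusted p = 0.0832).

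Of 31 regulators of cartilage formation, 25 were on the array and 21 were tested. None rose, 1 fell and 20 did not pass, and the median log2 difference was -0.052. The gene that fell was Foxc2, a forkhead factor of the axial skeleton and the vessels. It had 74.8, 215 and 65.2 in branching and 738, 741 and 472 in non-branching, and was at least 3.81-fold lower in branching (limma adjusted p = 0.0211), a lower bound because the branching mean was below background. With 1 array left out it kept its call without branching replicate 2 and lost it in the other 5 cases (limma adjusted p up to 0.0996, without non-branching replicate 2), and it did not pass without a variance trend (adjusted p = 0.128). Its other probe set, of a design that can also bind related transcripts, did not pass (limma adjusted p = 0.129). That probe set had 61.5, 80.1 and 15.7 in branching, all below background, and 317, 159 and 213 in non-branching, without overlap.

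**Figure D2:**
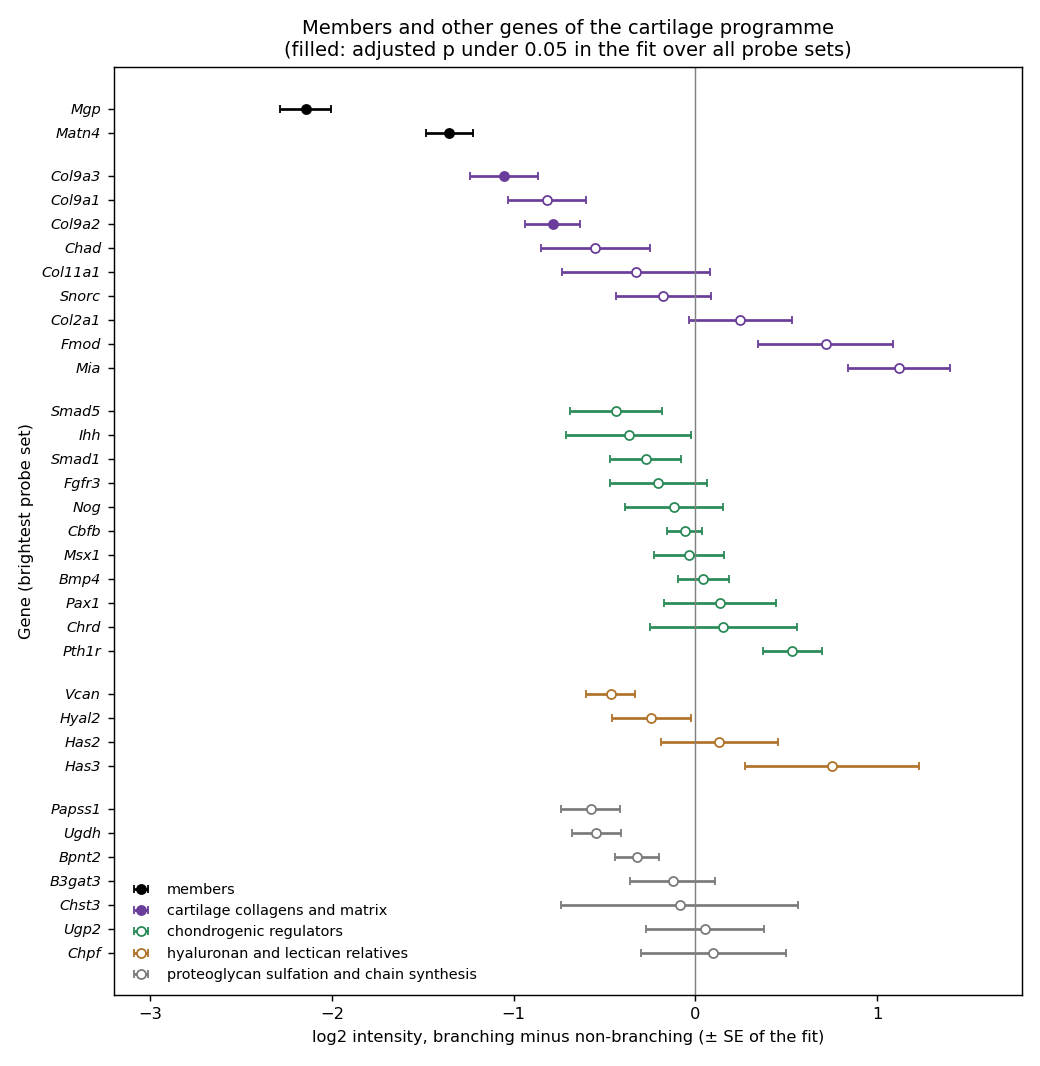
Difference in log2 intensity, branching minus non-branching, with the SE of the fit, for the members and 4 other lists of the cartilage programme (1 probe set per gene, n = 3 arrays per region, filled symbols called at an adjusted p under 0.05). Genes with a mean below background in either region are not drawn. Mgp at -2.14 and Matn4 at -1.35 lie farthest to the left of the genes drawn, ahead of Col9a3 at -1.05.

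Aggrecan and link protein work on a hyaluronan thread, so the genes of that system were set beside them. Of 14 genes for hyaluronan and for relatives of aggrecan and link protein, 8 were tested and none passed (median log2 difference 0). For 4 of these 8 a regional mean was below background. Vcan, the versican gene, whose product is the aggrecan relative of soft embryonic matrix, had 1934, 2697 and 2316 in branching and 3388, 3180 and 2957 in non-branching. The regions did not overlap, but the log2 difference of -0.47 ± 0.13 did not pass (limma adjusted p = 0.129). Has3, a hyaluronan synthase gene, differed by 0.75 ± 0.48 (limma adjusted p = 0.529).

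Proteoglycans also need sugar precursors and sulfate donors. Of 17 genes for these steps, 7 were tested and none passed (median log2 difference -0.13). Ugdh, which makes the glucuronic acid donor, had 1102, 1262 and 1484 in branching and 1905, 1908 and 1764 in non-branching, and differed by -0.54 ± 0.13 on the log2 scale (limma adjusted p = 0.0805). Papss1, which makes the sulfate donor, had 1447, 965 and 1356 in branching and 2016, 1749 and 1782 in non-branching, and differed by -0.58 ± 0.16 on that scale (limma adjusted p = 0.129). The regions did not overlap for either gene. Papss2 and the sulfate transporter gene Slc26a2, both needed in growth cartilage, were below background on all 6 arrays.

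Mgp becomes active when vitamin K-dependent carboxylation converts its glutamate residues. Of 17 genes for other Gla proteins, for this modification and for the control of calcification, 9 were tested and none passed (median log2 difference -0.014). Vkorc1, which recycles vitamin K, had 1060, 981 and 1074 in branching and 1582, 1253 and 1346 in non-branching, without overlap, and differed by -0.42 ± 0.13 (limma adjusted p = 0.178). F7, the coagulation factor VII gene, differed by -0.30 ± 0.22 (limma adjusted p = 0.604).

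Of 16 other Sox genes, 11 were tested, of which none rose, 1 fell and 10 did not pass (median log2 difference -0.46). The gene that fell was Sox10, a factor of neural crest and glia, with 771, 770 and 945 in branching and 1991, 1672 and 1489 in non-branching. It fell by 1.05 ± 0.15 on the log2 scale (limma adjusted p = 0.00974) and passed whichever array was left out, but not without a variance trend (adjusted p = 0.115). Its other probe set did not pass (adjusted p = 0.371).

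Several members are also made outside cartilage, so marker lists of other tissues were set beside them. Over all 6798 genes tested, 1.32% fell and 2.32% passed in either direction. Of 7 smooth muscle markers tested, 5 fell (Myh11, Cnn1, Acta2, Tagln and Actg2), and the summed intensity was 4919 to 5271 in branching and 9928 to 11292 in non-branching. The probe sets of Cnn1 and Actg2, and those of Actc1 and Hbb-y below, are of designs that can also bind related transcripts. The actin genes Acta2, Actg2 and Actc1 may therefore not be separate readings. Smtn was below background on all arrays, and Des differed by -0.04 ± 0.45 on the log2 scale (SE, limma adjusted p = 0.980). Without the 5 called genes the sums of these 2 overlapped, at 261 to 568 in branching and 274 to 476 in non-branching. In the skeletal and cardiac muscle, neural and endothelial lists 1 or 2 genes fell. Of 9 skeletal and cardiac muscle markers tested, 2 fell (Actc1 and Tnni1), with sums of 3235 to 3663 and 4815 to 5694, and Acta1, Myf5, Myh3 and Myh6 were below background on all arrays. Without Actc1 and Tnni1 the sums overlapped, at 2016 to 2105 in branching and 1870 to 3011 in non-branching. Of 6 neural and neural crest markers tested, 1 fell (Sox10), with sums of 3743 to 4162 and 4472 to 4832, and Elavl4, Fabp7, Nefl, Phox2a and Ret were below background throughout. Without Sox10 these sums overlapped too, at 2899 to 3391 in branching and 2840 to 3135 in non-branching. Of 9 endothelial markers, 1 fell (Vwf), with sums of 4292 to 4698 and 5024 to 5287. The other probe set of Vwf was below background on all arrays. Without Vwf the sums were 4223 to 4657 and 4687 to 4892, still without overlap, and 8 of the 9 log2 differences of the list were negative. Among red blood cell markers the calls went the other way: of 8 tested, 3 rose (Hba-x, Hba-a1 and Hbb-y) and 5 did not pass, and Epb42 was below background. Without the 3 called genes the sums overlapped, at 3196 to 4138 in branching and 3358 to 3810 in non-branching. Of 7 epithelial markers tested none passed, and the sums overlapped, at 3802 to 4279 and 3850 to 4204. Within that list Foxa2, a forkhead factor of the gut and lung epithelium, had 577, 542 and 525 in branching and 870, 806 and 849 in non-branching. Its regions did not overlap, but the log2 difference of -0.62 ± 0.15 did not pass (SE, limma adjusted p = 0.0751). Its relative Foxa1 overlapped and differed by -0.46 ± 0.26 (limma adjusted p = 0.469). Of the 12 marker calls, 5 held whichever array was left out (Myh11, Acta2, Sox10, Hba-x and Hba-a1). With each of the 6 arrays left out in turn, the call was lost in 6 cases for Tnni1, in 5 for Hbb-y, in 4 for Cnn1, in 2 each for Actg2 and Actc1, and in 1 each for Tagln and Vwf. These cases are for the brightest probe set of each gene. The other probe set of Hbb-y was also higher in branching, by 0.94 ± 0.08 on the log2 scale (SE, limma adjusted p = 0.000718). Leaving out non-branching replicate 3 gave limma adjusted p-values of 0.0506 (Tagln), 0.0573 (Actg2), 0.0588 (Actc1), 0.0995 (Cnn1) and 0.190 (Tnni1), and leaving out non-branching replicate 2 gave 0.0604 (Vwf) and 0.110 (Hbb-y). Without a variance trend 2 of the 12 held, Myh11 and Vwf, and the limma adjusted p of the others was between 0.0885 (Tagln) and 0.290 (Hbb-y). The part of these tissues in the values of Mgp, Matn4, Sox6 and Matn2 was not tested.

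**Figure D3:**
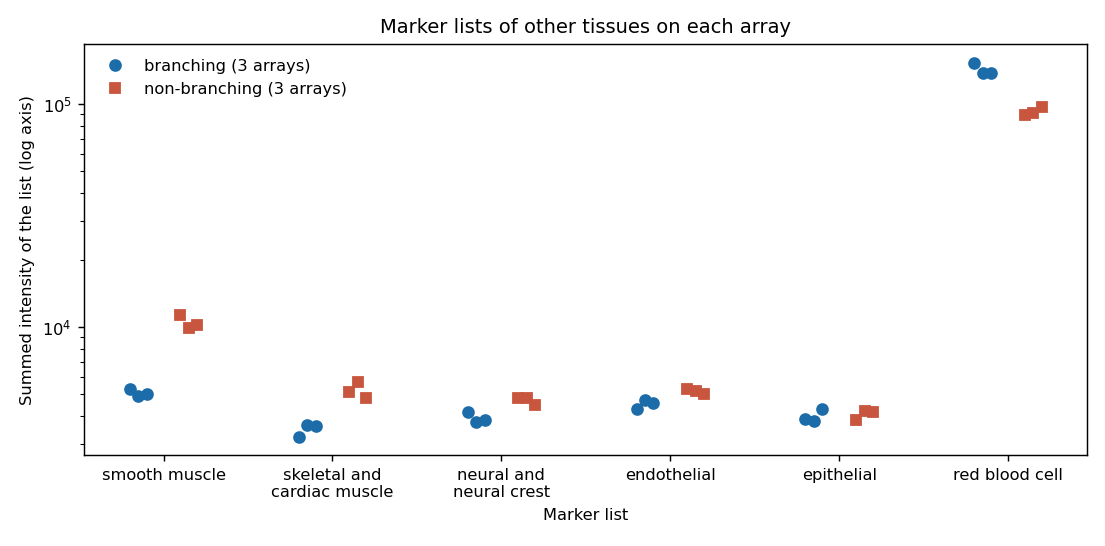
Summed intensity (log axis) of 6 marker lists on each array, 1 probe set per gene, with circles for branching and squares for non-branching arrays. The smooth muscle sum is 4919 to 5271 in branching and 9928 to 11292 in non-branching, the epithelial sums overlap, and the red blood cell sum is higher in branching.

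The genes whose log2 signal followed each detectable member most closely over the 6 arrays were listed from the 6798 genes tested. For a member whose regions lie apart, such a correlation over 6 arrays reflects mainly the regional difference. At over 0.9, 245 genes correlated with Mgp and 247 with Matn4, so the order is a description. Mgp was closest to 6330403K07Rik (r = 0.997), to the type I collagen gene Col1a2 (r = 0.996) and to Ctsf, the cathepsin F gene (r = 0.995). Matn4 was closest to Acaa2, a mitochondrial thiolase gene (r = 0.999), to the ribosomal protein gene Rps4x (r = 0.997) and to Qars, a tRNA synthetase gene (r = 0.994). The sizes differed within these groups: Ctsf was at least 4.25-fold lower in branching (limma adjusted p = 0.00142), a lower bound because its 3 branching values were below background. Col1a2 had a log2 difference of -1.04 and Rps4x of -0.30. Sox6 was closest to Slc38a5 (r = 0.998), Akirin1 (r = 0.992) and Trappc1 (r = 0.989), and Matn2 to Ndfip1 (r = 0.987), Rsrp1 (r = 0.983) and Gadd45b (r = 0.978). Ndfip1, Rsrp1 and Gadd45b overlapped between the regions, as Matn2 itself did. Sox6 and Matn2 had branching means below background, so all their correlations rest partly on values below it. Among the members, Mgp and Matn4 correlated at 0.981, Matn4 and Sox6 at 0.890, Mgp and Sox6 at 0.869, and Matn2 with the other 3 at 0.420 to 0.685.

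**Figure D4:**
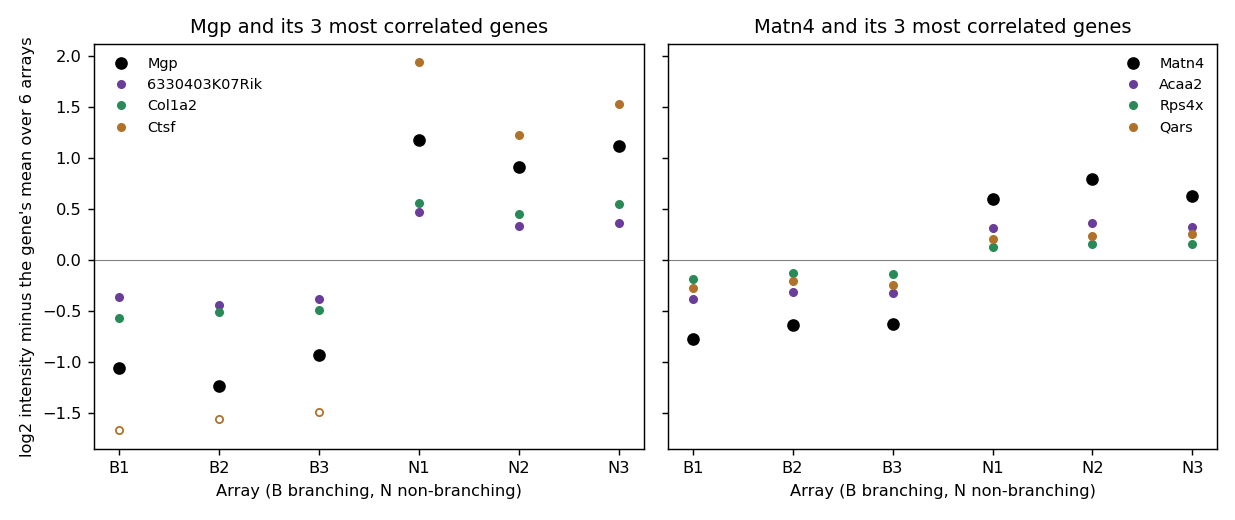
Log2 intensity of Mgp (left) and Matn4 (right) and of the 3 genes most correlated with each, on the 3 branching (B1 to B3) and 3 non-branching (N1 to N3) arrays, each as the deviation from that gene's mean over the 6 arrays, with open symbols for values below background. All genes drawn lie below 0 in branching and above 0 in non-branching. The branching points of Ctsf lie below background, so the size of its gap is not measured, and Rps4x shows a narrower gap than Matn4.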

How the data were processed

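Total RNA of 3 branching and 3 non-branching samples was read on 6 arrays. The deposited values are linear intensities, 1 per probe set. How the authors derived them from the scans is not stated in the labels or the file. Without its lowest and highest 2%, each array had a mean of 500.3, which shows a common scaling. Controls (66 of 12488 probe sets) were removed. In the annotation 10833 of the others had 1 symbol, 396 several and 1193 none, and 10817 matched a RefSeq gene by Entrez identifier, which changed no symbol. Values below 16 were set to 16, log2 was taken, the dimmest 25% were left out, and limma 3.58.1 (R 4.3.3) was fitted to the 9316 that remained (eBayes with a variance trend, two-sided, Benjamini-Hochberg). A gene was read by its brightest probe set. A bound sets the arrays of the dim region that lie below background to the background level. The code was tested on simulated data, in which 53% of 2-fold and 82% of 4-fold changes were recovered. A gene that did not pass may therefore still differ. Named in each list were the called genes of largest change (at most 6), or failing any call those of the 2 smallest p-values, and for each member detectable in a region the 3 most correlated genes. Cartilage cell markers are given in addition. The members and lists were chosen with earlier results of these data known. Alternatives were a replicate block, 2 normalizations, 2 filters, a floor of 64, adding 16, no variance trend, array weights, leaving out each array and averaging a gene's probe sets.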

Additional observations from a re-analysis of the deposited data

How the results depend on the processing

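Mgp and Matn4 were called lower under all 15 alternatives run for them, with log2 differences of -2.22 to -2.06 and of -1.39 to -1.29, and no other member probe set was called under any alternative that tested it. The counts over all probe sets, 84 higher and 105 lower, were 38 and 62 when dim probe sets were kept, 5 and 17 without a variance trend, and 16 to 69 and 38 to 98 with 1 array left out. Samples of the same replicate number did not deviate together (correlations of deviations of -0.0023, 0.013 and -0.015, and 0 of 6 samples correlated best with their own number), so the numbers were not taken as pairs. With the replicate block the counts were 44 and 70, the 2 cartilage collagen calls became 0, and the call of Foxc2 remained. The number of cartilage collagen and matrix genes called, 2, became 1 without the filter and 0 without the trend. It was 1 when the probe sets of a gene were averaged, and 0 to 1 with 1 array left out. The 1 called without branching replicate 2 was neither Col9a2 nor Col9a3. The 1 regulator called became 0 without the filter and without the trend, and 0 to 1 with 1 array left out. The causes were not tested. Signal over background limits most members: for 7 of the 11 probe sets both regional means were below it. The settings that put values below background at that level, and that leave genes out of marker sums, were chosen after seeing the data.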
